A study of Mus musculus with 4 samples.

Results

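The urea cycle and amino acid catabolism genes of the liver were described here as a module of 43 genes. These genes were selected by symbol from the 46603 genes of the count table, with earlier results of these data known. All 43 had enough counts to be tested, among 13001 genes tested. They comprised the 6 enzymes of the urea cycle, 6 enzymes that handle glutamine, glutamate and the main amino groups, 6 of tyrosine and tetrahydrobiopterin, 4 each of tryptophan, of serine and glycine and of histidine, 6 of methionine and transsulfuration, 2 of cysteine and taurine, and 5 of proline, lysine and the branched-chain amino acids.

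Hepatocytes break down surplus amino acids by first moving the amino group onto glutamate or aspartate and then releasing it as ammonia, which the urea cycle turns into urea for excretion by the kidney. The carbon skeletons that remain enter gluconeogenesis, ketone body formation or the tricarboxylic acid cycle, and the methionine branch also provides the methyl donor S-adenosylmethionine. Many of these enzymes are most abundant in hepatocytes around the portal vein, and glucagon and glucocorticoids raise them when the body draws on protein.

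Total liver RNA was sequenced from 4 male mice carrying HuR flox/flox alleles on the C57BL/6 J background. The paper names mice of both sexes for its in vivo work. Control mice 1 and 2 had received AAV8 that expresses GFP from the thyroxine-binding globulin promoter (TBGP), and HuR hKO mice 3 and 4 had received AAV8 with Cre recombinase behind the same promoter. That promoter is active in hepatocytes, so the other cells of the liver were not meant to lose HuR, an RNA-binding protein encoded by Elavl1. Both groups were fed a Western diet with 42% of its energy from fat and 0.1% cholesterol, together with water holding 23.1 g/L fructose and 18.9 g/L glucose (WDSW), for 4 weeks, and the age of the mice was not given in the sources used here.

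The libraries held 13032095, 13615761, 13806773 and 19715577 counts in mice 1 to 4, so mouse 4 was sequenced most deeply. Levels are given as CPM, the counts of a gene scaled to a fixed library total, with TMM factors, which keep the bulk of genes level between libraries. Hepatocyte markers made up 9.24%, 8.76%, 9.07% and 9.38% of the counts of the 4 livers, while a list of 6 neutrophil markers summed to at most 2.39 CPM. The targeted gene, Elavl1, read 28.4 and 25.9 CPM in the control livers and 37.7 and 34.4 CPM in the livers labelled HuR hKO. Its level was thus not lower under the knockout label, and both of these livers read above both controls (log2 fold change 0.41, SE 0.135, unadjusted p = 0.016, adjusted p = 0.545, edgeR quasi-likelihood test). The paper, by contrast, reports less HuR mRNA and protein in livers of its HuR hKO mice. Counts per gene do not separate the floxed exons from the others, and each direction below is that of the libraries labelled HuR hKO over the control libraries.

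None of the 43 genes passed an adjusted p under 0.05 in either direction in the edgeR quasi-likelihood test, where 0.0154% of all genes tested passed as higher and 0.00769% as lower. The count was also 0 by DESeq2 and by limma-voom, which called 85 (0.654%) and 2 (0.0154%) of all genes tested. At an unadjusted p under 0.05, 6 members were higher and 0 lower, or 14.0% of the module, beside 4.04% of all genes tested as higher and 3.39% as lower. These 6 were Gpt, Got1, Gnmt, Prodh, Gls2 and Sds. At the threshold of at least 1.8-fold with an unadjusted p under 0.05, 0 members were counted, beside 1.21% of all genes higher and 0.915% lower. Both livers labelled HuR hKO lay above both control livers for 13 members (30.2%), beside 19.3% of all genes tested, and below them for 1 member, Uroc1 (2.33%), beside 18.8%. In the fit 34 members were higher and 9 lower. Their median, 0.09 as a log2 fold change, stood beside 0.0020 over all genes tested, and they ranged from -0.26 to 0.71.

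These counts rested largely on mouse 4. Without it, 0 members had an unadjusted p under 0.05 and a higher level and 1 had a lower one, beside 2.06% and 2.33% of all genes tested, and 24 were fitted higher and 19 lower. Without mouse 3 the corresponding count was 7 higher and 1 lower, beside 3.28% and 3.03% of all genes, and 40 of the 43 were fitted higher. Leaving out control mouse 1 gave 5 higher and leaving out control mouse 2 gave 4 higher, beside 3.45% and 5.53% of all genes.

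**Figure D1:**
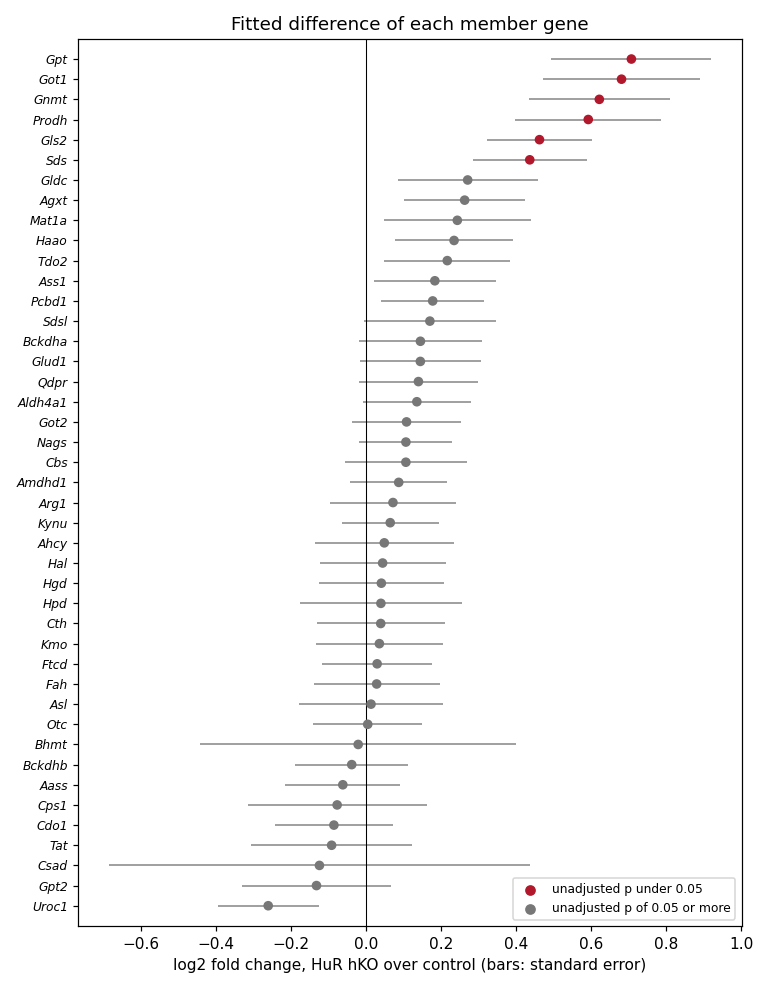
Each row is a member gene, the point is the fitted log2 fold change of HuR hKO over control and the bar is its standard error (2 mice a group). The 6 genes in red, from Sds at 0.44 to Gpt at 0.71, had an unadjusted p under 0.05, and none passed the adjusted threshold.

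No enzyme of the urea cycle passed the test, adjusted or not. Cps1, the mitochondrial synthetase that commits ammonia to the cycle, read 2441 and 1490 CPM in the control livers and 1744 and 1984 CPM in the livers labelled HuR hKO. The 2 control livers enclosed both other values. Without control mouse 2 its log2 fold change was -0.39 and without control mouse 1 it was 0.31, so its direction rested on which control liver was kept. Nags makes N-acetylglutamate, the activator that Cps1 needs, and read 64.3 and 68.7 CPM in the control and 72.2 and 71.0 CPM in the HuR hKO livers. Its groups did not overlap, and the log2 fold change was 0.11 (SE 0.124).

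Otc, which joins carbamoyl phosphate to ornithine, read 391 and 414 CPM in the control livers and 373 and 435 CPM in the HuR hKO livers. The livers of the second group lay on either side of the first. Ass1, which condenses citrulline with aspartate and so brings in the other nitrogen, read 2012 and 1831 CPM in the controls and 2109 and 2255 CPM in the HuR hKO livers. Both of the latter were above both controls (log2 fold change 0.18, SE 0.162).

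Asl, which splits argininosuccinate into arginine and fumarate, read 444 and 515 CPM in the controls and 400 and 568 CPM in the HuR hKO livers. Arg1, which releases urea from arginine, read 882 and 896 CPM in the controls and 820 and 1049 CPM in the HuR hKO livers. For both genes mouse 3 was the lowest liver and mouse 4 the highest, so the groups overlapped. The adjusted p of the 6 enzymes lay between 0.840 and 0.995 (edgeR quasi-likelihood test), and their fitted log2 fold changes between -0.08 and 0.18. In bulk liver, fewer cells of a type and less RNA per cell cannot be told apart.

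The enzymes of glutamine, glutamate and amino group transfer held 3 of the 6 members with an unadjusted p under 0.05, a glutaminase and a pair of aminotransferases. Gpt, the alanine aminotransferase that converts alanine to pyruvate, lies on chromosome 15 (chr15:76695716-76699686, GRCm38, plus strand). It read 352 and 394 CPM in the control livers and 476 and 742 CPM in the livers labelled HuR hKO. Both of the latter were above both controls, and mouse 4 stood well above mouse 3. The group means were 373 ± 29.9 and 609 ± 189 CPM (SD, n = 2), the fitted difference was 1.63-fold (log2 0.71, SE 0.213), and the adjusted p was 0.490 in edgeR. Leaving out 1 mouse in turn gave log2 values between 0.35, without mouse 4, and 0.98.

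Got1, the cytosolic aspartate aminotransferase and part of the malate-aspartate shuttle, lies on chromosome 19 (chr19:43499752-43524605, minus strand). It read 120 and 112 CPM in the controls and 143 and 228 CPM in the HuR hKO livers. Mouse 4 was again the highest and mouse 3 only modestly above the controls (log2 fold change 0.68, SE 0.210, edgeR adjusted p = 0.510, 0.30 without mouse 4). Gls2, the liver glutaminase that frees ammonia from glutamine beside Cps1, read 251 and 218 CPM in the controls and 315 and 331 CPM in the HuR hKO livers. Here the livers within a group were close to each other and the groups were apart (log2 fold change 0.46, SE 0.139, edgeR adjusted p = 0.490), and every fit with 1 mouse left out gave a value between 0.37 and 0.55.

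The mitochondrial counterparts of the aminotransferases did not share these values. Got2, the mitochondrial aspartate aminotransferase, had a log2 fold change of 0.11 (SE 0.146) and overlapping groups. Gpt2, the mitochondrial alanine aminotransferase, had one of -0.13 (SE 0.198), with mouse 3 the lowest liver at 383 CPM. Glud1, the glutamate dehydrogenase that releases ammonia in mitochondria, read between 861 and 1064 CPM over the 4 livers with overlapping groups. The difference between the cytosolic and mitochondrial enzymes was not tested.

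**Figure D2:**
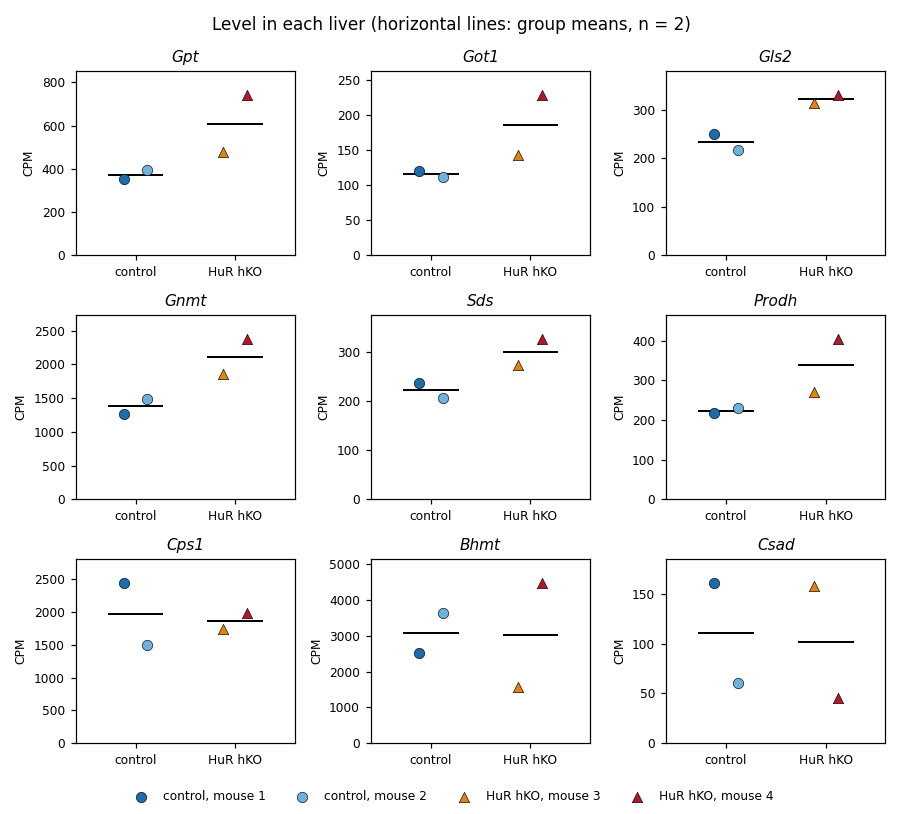
Each panel shows the level of 1 gene in CPM in each liver (circles for control mice 1 and 2, triangles for HuR hKO mice 3 and 4), with the group mean as a line and the axis starting at 0. The 6 upper genes had both triangles above both circles, while Cps1, Bhmt and Csad in the lowest row differed more between the mice of a group than between the groups.

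Of the 6 methionine enzymes, 1 had an unadjusted p under 0.05. Gnmt, which uses up S-adenosylmethionine by methylating glycine, lies on chromosome 17 (chr17:46725664-46729168, minus strand). It read 1257 and 1493 CPM in the control livers and 1854 and 2379 CPM in the livers labelled HuR hKO. Both of the latter were above both controls, with means of 1375 ± 167 and 2116 ± 371 CPM (SD, n = 2). The fitted difference was 1.54-fold (log2 0.62, SE 0.188, edgeR adjusted p = 0.493), and with 1 mouse left out it stayed between 0.43 and 0.77.

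Bhmt, which regenerates methionine from homocysteine with betaine, read 2515 and 3628 CPM in the controls and 1576 and 4479 CPM in the HuR hKO livers. The HuR hKO livers were the lowest and the highest of the 4 and differed 2.84-fold between themselves, while the fitted log2 fold change was -0.02 (SE 0.421). Without mouse 4 it was -0.96 and without mouse 3 it was 0.53. Mat1a, which makes S-adenosylmethionine, and Ahcy, which clears its product, had log2 fold changes of 0.24 (SE 0.196) and 0.05 (SE 0.185) with overlapping groups. Cbs and Cth, the enzymes of transsulfuration to cysteine, had values of 0.11 and 0.04, also with overlapping groups.

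Csad, the decarboxylase on the route from cysteine to taurine, had the widest spread of the module. It read 161 and 60.8 CPM in the controls and 158 and 45.9 CPM in the HuR hKO livers. Mice 1 and 3 were high and mice 2 and 4 low, so the split ran across both groups, with a 2.65-fold gap between the controls and a 3.45-fold gap between the HuR hKO livers. The fitted log2 fold change was -0.12 (SE 0.562), and it ranged from -1.29 to 0.73 with 1 mouse left out. Bhmt and Csad were the only members of the 43 with a gap over 2-fold within a group. Cdo1, the dioxygenase that starts cysteine oxidation, ranged only from 1012 to 1184 CPM over the same livers.

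Prodh, the mitochondrial enzyme that starts proline oxidation, lies on chromosome 16 (chr16:18060357-18090203, minus strand). It read 217 and 230 CPM in the controls and 270 and 404 CPM in the livers labelled HuR hKO. Both of the latter were higher and mouse 4 was the highest (1.51-fold, log2 0.59, SE 0.195, edgeR adjusted p = 0.542, 0.27 without mouse 4). Aldh4a1, the next enzyme toward glutamate, read 466 and 486 CPM in the controls and 487 and 558 CPM in the HuR hKO livers, groups that were narrowly apart. Aass of lysine breakdown and Bckdha and Bckdhb of the branched-chain keto acid dehydrogenase had log2 fold changes of -0.06, 0.15 and -0.04 with overlapping groups.

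Sds, which deaminates serine to pyruvate, read 238 and 207 CPM in the control livers and 274 and 328 CPM in the livers labelled HuR hKO. Both of the latter were higher (1.35-fold, log2 0.44, SE 0.152, edgeR adjusted p = 0.574), and the value lay between 0.30 and 0.54 with 1 mouse left out. Its transcripts share 365 bases with Plbd2 on the opposite strand, a gene with 1161, 1089, 1137 and 1704 counts in mice 1 to 4 beside 3165, 2766, 3927 and 6174 for Sds. The gene spans of Gls2 and Prodh overlap those of Spryd4 and Dgcr6 on the opposite strand. Whether the counting used strand was not given in the sources used here, so reads in any shared stretch cannot be told apart. Agxt, which disposes of glyoxylate, had both HuR hKO livers above the controls (158 and 163 against 165 and 219 CPM, log2 fold change 0.26, SE 0.160). Gldc of glycine cleavage and Sdsl, a relative of Sds, had values of 0.27 and 0.17 with overlapping groups.

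No gene of tyrosine breakdown passed the test. Tat, which takes the amino group off tyrosine, read 906 and 1006 CPM in the controls and 704 and 1091 CPM in the HuR hKO livers. Hpd, Hgd and Fah, the next steps toward fumarate and acetoacetate, had log2 fold changes between 0.03 and 0.04, and for all of them mouse 3 was the lowest and mouse 4 the highest liver. Pcbd1, which recycles tetrahydrobiopterin, read 232 and 264 CPM in the controls and 274 and 287 CPM in the HuR hKO livers, and its groups did not overlap (log2 fold change 0.18, SE 0.137). Qdpr, the other recycling enzyme, had overlapping groups and a value of 0.14.

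Of the tryptophan enzymes, Tdo2, which opens the indole ring, had a log2 fold change of 0.22 (SE 0.168) and Haao, a later step toward NAD, one of 0.23 (SE 0.158). Haao read 450 and 556 CPM in the controls and 575 and 608 CPM in the HuR hKO livers, without overlap, whereas the groups of Tdo2, Kmo and Kynu overlapped.

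Histidine breakdown held the sole member with both HuR hKO livers below both controls. Uroc1, the urocanase, read 511 and 503 CPM in the controls and 419 and 427 CPM in the HuR hKO livers. The livers of a group were nearly alike and the groups lay apart, with a log2 fold change of -0.26 (SE 0.135, edgeR adjusted p = 0.704). Amdhd1, the step after Uroc1, had the opposite sign at 0.09 with groups that did not overlap, and Hal before it and Ftcd after it had values of 0.04 and 0.03 with overlapping groups.

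**Figure D3:**
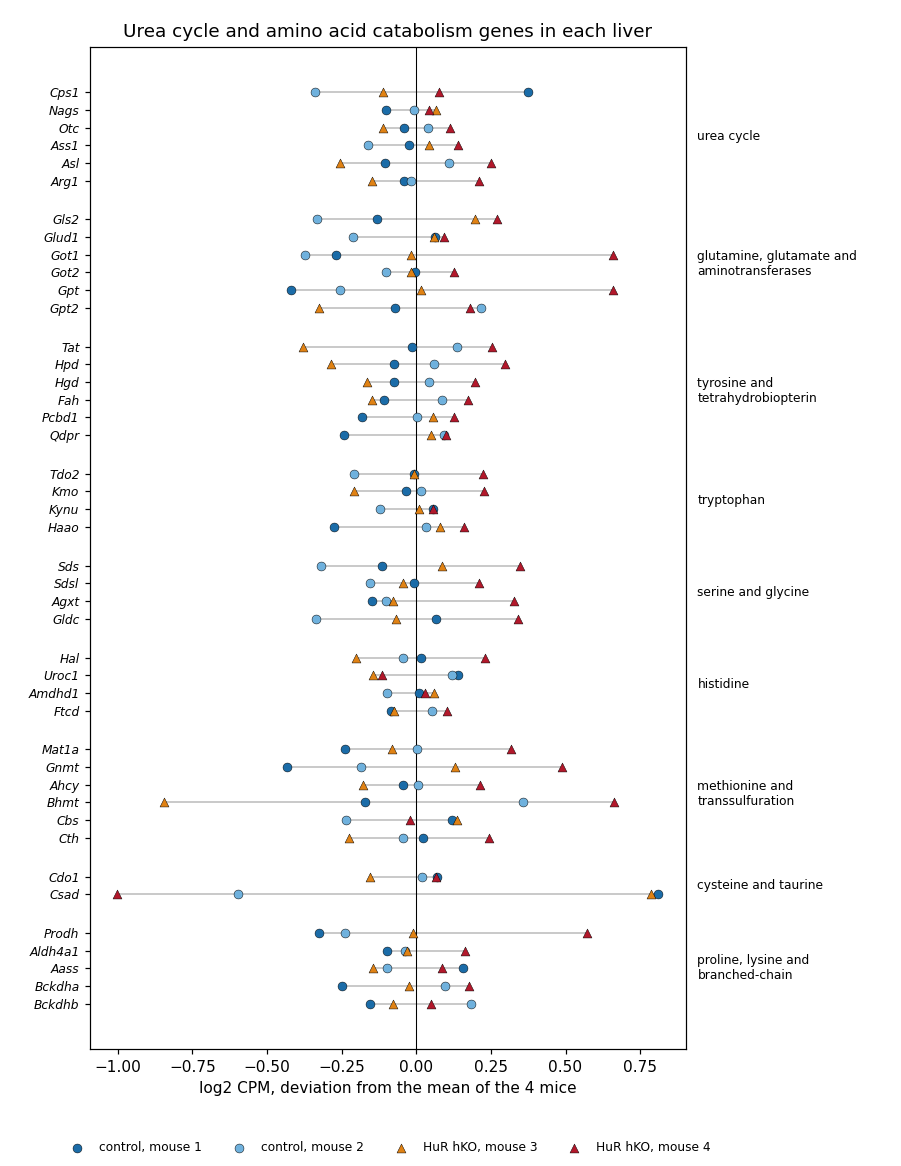
Each row is a member gene and each symbol 1 liver, placed by its log2 CPM minus the mean of the 4 mice, with the genes grouped by pathway. The dark red triangles of mouse 4 are the rightmost symbol in 33 of 43 rows, and Csad, Bhmt and Cps1 show the wide gaps within a group.

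Across the module, levels differed between the mice labelled HuR hKO. Mouse 4 had the highest level of the 4 livers in 33 of 43 members (76.7%) and was above mouse 3 in 39 (90.7%). Over all genes tested the shares were 26.7% and 49.5%, and over the 1384 genes with a mean of at least 100 CPM they were 47.8% and 71.2%. Mouse 3 was the lowest liver for 16 members (37.2%) and mice 1 and 2 for 13 each, and mouse 3 was the lowest for 21.4% of all genes tested and 28.2% of those with at least 100 CPM. Each library gives 1 value per gene, so the 43 genes are not 43 replicates of this difference, and no test was made of it.

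In summed level the module read 29045 and 29975 CPM in the control livers and 27602 and 36385 CPM in the livers labelled HuR hKO, so the lowest and the highest liver were in the same group. Relative to the mean of the 4 mice the median member lay at -0.07, -0.04, -0.07 and 0.18 on the log2 scale in mice 1 to 4. Besides its larger library, mouse 4 had the highest summed level of erythroid markers (363 and 450 CPM in the controls, 488 and 711 CPM in mice 3 and 4) and of 10 stellate cell markers (220, 227, 243 and 304 CPM). Of 6 erythroid markers 5 were tested and all 5 were fitted higher, beside 50.3% of all genes tested. At an unadjusted p under 0.05, 3 of them were higher, beside 4.04% of all genes tested. The 10 hepatocyte markers summed to 90632, 89011, 87336 and 98201 CPM. Mitochondrial genes took 7.08%, 7.32%, 6.56% and 7.64% of the counts of mice 1 to 4, the same order of livers as the summed level of the module. The part of library size, the mitochondrial share and these cell types in the level of mouse 4 was not tested.

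Markers of the hepatocytes around the portal vein, where the urea cycle is concentrated, summed to 14504 and 14575 CPM in the controls and 17973 and 19147 CPM in the livers labelled HuR hKO. Of the 12 genes 7 were fitted higher and 5 lower (median 0.04 on the log2 scale). At an unadjusted p under 0.05 there were 2 higher and 1 lower, beside 4.04% and 3.39% of all genes tested. The 14 markers of the hepatocytes around the central vein summed to 12926 and 14189 CPM against 11702 and 14811 CPM, with 9 fitted higher and 5 lower. Of these 14, 3 were higher and 0 lower at an unadjusted p under 0.05, beside the same shares of all genes tested. Kupffer cell markers, 10 genes, summed to 229 and 237 CPM against 265 and 249 CPM, and the part of these lists in the results on the module was not tested.

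**Figure D4:**
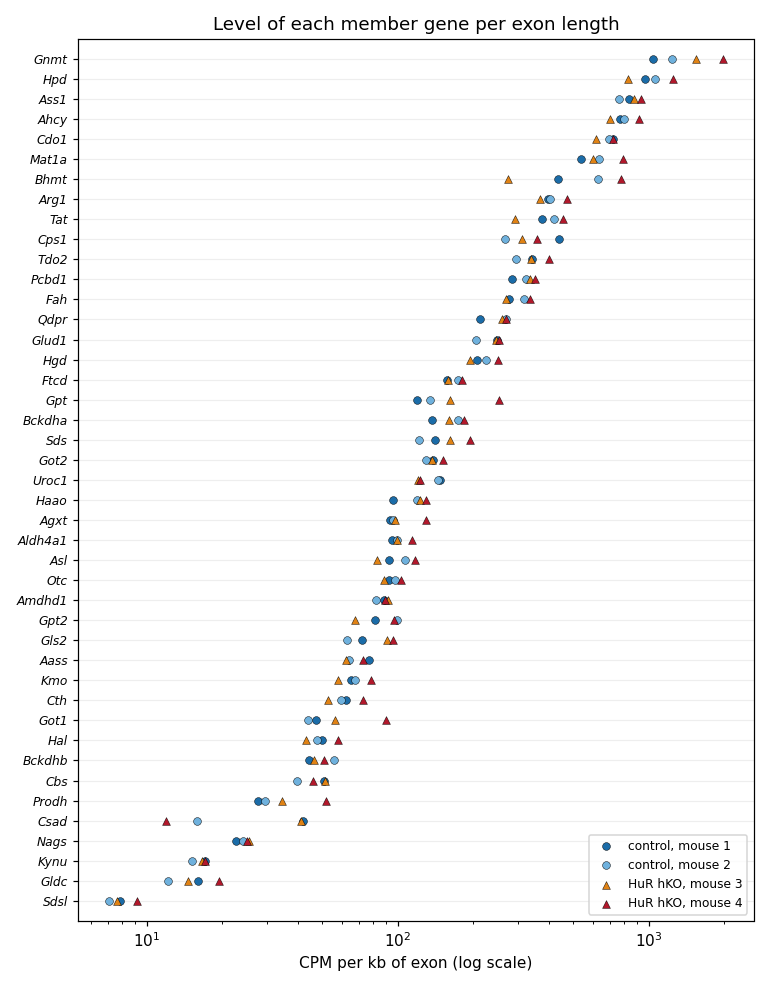
Levels in CPM per kb of exon (all annotated exons of a gene merged) on a log axis, 1 row per member and 1 symbol per liver, sorted by the mean of the 4 mice. The rows run from Gnmt down to Sdsl over a 183-fold range, and the symbols of 39 of the 42 neighbouring pairs overlap.

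Each level was also divided by the merged length of all annotated exons of the gene. That length can exceed the main transcript, so the order below depends in part on the annotation. Per length of exon, the order of the 43 genes began with Gnmt at 1448 ± 405 CPM per kb (SD, 4 mice), followed by Hpd at 1023 ± 174 and Ass1 at 850 ± 73.7 CPM per kb. It ended with Kynu at 16.5 ± 0.941, Gldc at 15.5 ± 3.03 and Sdsl at 7.92 ± 0.859 CPM per kb, a 183-fold range. Of the urea cycle enzymes Ass1, Arg1 and Cps1 held ranks 3, 8 and 10, and Asl, Otc and Nags ranks 26, 27 and 40. The ranges of the 4 mice overlapped in 39 of the 42 pairs of neighbours in this order. Hgd and Ftcd, Nags and Kynu, and Gldc and Sdsl were the 3 pairs that did not.

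Near copies elsewhere in the genome took little of these counts. The transcripts of Ahcy, Ass1 and Bhmt matched the genes or pseudogenes Gm4737, Gm5424 and Gm5096 at 99.7%, 99.5% and 99.4% identity. Those copies held at most 2.44%, 2.23% and 2.19% of the counts of the member in any liver.

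For 32 of the 43 members RefSeq promoter sequences of GRCm38.p6 were at hand, and for 3 of the 6 members with an unadjusted p under 0.05. They are shown for these 3, whose groups did not overlap, as the 250 bases before the RefSeq start, 5′ to 3′ on the minus strand, at chr19:43524606-43524855, chr17:46729166-46729415 and chr16:18089191-18089440. The window of Prodh lies inside the GENCODE span of the gene given above, which starts further upstream. Capitals mark the CCAAT box on either strand.
Got1: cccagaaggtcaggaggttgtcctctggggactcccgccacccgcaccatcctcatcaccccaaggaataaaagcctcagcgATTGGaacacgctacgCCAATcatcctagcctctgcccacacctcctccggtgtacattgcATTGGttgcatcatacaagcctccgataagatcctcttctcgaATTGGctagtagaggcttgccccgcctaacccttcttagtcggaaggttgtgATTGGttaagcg
Gnmt: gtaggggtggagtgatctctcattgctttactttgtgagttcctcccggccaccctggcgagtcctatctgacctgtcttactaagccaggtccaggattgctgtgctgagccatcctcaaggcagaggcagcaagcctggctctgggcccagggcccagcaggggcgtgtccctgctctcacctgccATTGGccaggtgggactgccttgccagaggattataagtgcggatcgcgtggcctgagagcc
Prodh: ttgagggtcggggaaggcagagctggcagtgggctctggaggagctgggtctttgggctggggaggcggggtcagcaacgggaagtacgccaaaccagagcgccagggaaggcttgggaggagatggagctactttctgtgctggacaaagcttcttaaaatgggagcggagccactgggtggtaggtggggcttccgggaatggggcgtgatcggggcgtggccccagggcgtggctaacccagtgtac
Got1 held the CCAAT box 5 times, Gnmt held it 1 time and Prodh did not hold it. The letters CCAAT were in 16 of 34 promoters of member genes (47.1%) and in 33.8% of all 32851 promoters of that length in the table. The CRE motif TGACG, the core TTGCNNAA of C/EBP, the glucocorticoid receptor motif AGAACA, the TATA box TATAAA and the GC box GGGCGG were in none of the 3 windows. Over the member promoters they were in 8.82%, 11.8%, 8.82%, 17.6% and 38.2%, beside 17.8%, 9.56%, 16.1%, 12.4% and 32.7% of all promoters. The motif search covered both strands and says nothing of whether a factor binds there.

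Beyond the module, 63 of 70 other enzymes of the same pathways had enough counts to be tested. None passed the adjusted threshold in edgeR or limma-voom and 1, Kyat1, passed in DESeq2. At an unadjusted p under 0.05 the edgeR test gave 5 higher and 5 lower, beside 4.04% and 3.39% of all genes tested. The median of these enzymes was 0.06 on the log2 scale. Kyat1, a kynurenine aminotransferase, read 116 and 102 CPM in the controls and 172 and 171 CPM in the livers labelled HuR hKO. Levels were close within each group (log2 fold change 0.65, SE 0.132, adjusted p = 0.201 in edgeR, 0.0177 in DESeq2 and 0.20 in limma-voom). Kyat3, an enzyme of the same reaction, went the other way at 174 and 155 CPM against 121 and 111 CPM (-0.50, SE 0.134, edgeR adjusted p = 0.409). The remaining 8 lay in several pathways.

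Glul, which makes glutamine from ammonia around the central vein, read 1024 and 1223 CPM in the controls and 1516 and 1734 CPM in the livers labelled HuR hKO (0.53, SE 0.170, edgeR adjusted p = 0.526). Its groups were apart, as were those of Gls2, which runs the opposite conversion. The log2 fold changes of Gchfr, the feedback regulator of tetrahydrobiopterin synthesis, Mccc1 of leucine breakdown and Prodh2 of hydroxyproline breakdown were 0.66, 0.46 and 0.44. Those of Ppm1k, the phosphatase that activates the branched-chain dehydrogenase, and Dhtkd1 of lysine breakdown were -0.46 and -0.39.

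Of 20 amino acid carriers 19 were tested and 0 passed the adjusted threshold in edgeR, DESeq2 or limma-voom. At an unadjusted p under 0.05, 2 were higher, the neutral amino acid carrier Slc1a4 (0.66, SE 0.246) and the mitochondrial glutamate carrier Slc25a22 (0.37, SE 0.132). The aromatic amino acid carrier Slc16a10 was lower (-0.52, SE 0.223), at 107 and 64.0 CPM in the controls and 62.5 and 57.3 CPM in the HuR hKO livers, where control mouse 1 alone stood apart. Over all genes tested, 4.04% were higher and 3.39% lower at that threshold. The median of the carriers was 0.0081 on the log2 scale.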

How the data were processed

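The authors deposited 1 table of gene counts, whole numbers without normalization, with a column for each of the 4 mice. The submitters' processing notes name RSEM and the genome build GRCm38. Aligner, versions and the use of strand were not given in the sources used here. Columns were matched to mice by name, with 0 left over, and 46005 of 46603 identifiers to symbols and to GENCODE annotation of GRCm38.

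Genes were kept by the edgeR 4.0.16 filter (minimum 10 counts, total of at least 15), scaled by TMM and compared by the quasi-likelihood test with Benjamini-Hochberg adjustment over 13001 genes, in R 4.3.3. The SE was taken as the size of the log2 fold change over the square root of F. The code was tested on simulated data. Alternatives were DESeq2 1.42.0, limma 3.58.1 (voom), robust fitting, other scalings and filters, and leaving out each mouse. Near copies were searched with blastn 2.17.0 (at least 95% identity over 300 bases). Figures were drawn with matplotlib 3.10.9 from tables made in pandas 2.3.3 (numpy 2.4.6, python 3.11.15).

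Values in every mouse were given for the urea cycle, for members with an unadjusted p under 0.05 and for those without overlap and at least 1.3-fold. Bhmt, Csad, Tat, Pcbd1, Haao, Uroc1, Agxt and Aldh4a1 were added after their values were seen. Members and lists were chosen with earlier results of these data known, and the CCAAT and GC boxes were added to the motifs after the sequences were seen. Each group was 2 mice with 1 library each.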

Additional observations from a re-analysis of the deposited data

How the results depend on the processing

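No paired analysis was made, because the labels number the mice from 1 to 4 and give no pairing of control with HuR hKO mice. The count of members with an adjusted p under 0.05 was 0 under all 12 alternatives, and the smallest member value was 0.0556 (Gpt, without the filter on low counts), then 0.0651 (Gnmt, DESeq2) and 0.130 (Got1, without scaling).

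Without scaling for library size the median of all genes moved to a log2 fold change of 0.31. The medians were then 0.41 for members, 0.36 for other enzymes, 0.33 for carriers, 0.41 for regulators and 0.69 for Atf4 targets. All 43 members were fitted higher, 4 passed 1.8-fold, and 21 higher and 0 lower did not overlap. Shares of all genes tested were not taken for these member counts without scaling. The counts therefore cannot be read as particular to the module. At an unadjusted p under 0.05 this setting gave 11 higher and 0 lower other enzymes and 0 lower carriers. It also gave 5 higher regulators and 6 higher Atf4 targets, beside 10.1% of all genes tested as higher and 0.623% as lower. Cps1, Bhmt and Csad reversed to 0.25, 0.38 and 0.084. Mouse 4 had the largest library, and its part in these shifts was not tested. DESeq2 gave 2 lower other enzymes, beside 1.93% of all genes tested. Limma-voom and the robust test gave 0 lower carriers each, beside 3.48% and 3.41%, and no filter gave 6 higher Atf4 targets, beside 3.28%. Otc, near 0, reversed to -0.0046 (upper quartile, and at least 10 counts in every sample), -0.0074 (no filter) and -0.0013 (limma-voom), and Asl to -0.0097 (limma-voom). The causes were not tested.

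With 1 mouse left out, the lone sample of a group was assumed to vary like the other group. Log2 fold changes then ranged from -0.12 to 0.22 for Arg1, -0.26 to 0.23 for Asl, -0.96 to 0.53 for Bhmt, -0.39 to 0.31 for Cps1, -1.29 to 0.73 for Csad and -0.11 to 0.10 for Otc. Members without overlap ranged from 14 to 35 higher and 2 to 16 lower, those at an unadjusted p under 0.05 from 0 to 7 higher and 0 to 1 lower, and those past 1.8-fold from 0 to 2 higher and 0 to 1 lower. When a group holds 1 mouse, any gene lacks overlap more readily than with 2 mice a group. Shares of all genes tested were not taken for non-overlap or 1.8-fold in these fits. The member counts for both therefore cannot be read as particular to the module. The median of members ranged from 0.034 to 0.21, of other enzymes from -0.073 to 0.14, of carriers from -0.047 to 0.10, of regulators from -0.057 to 0.17 and of Atf4 targets from 0.14 to 0.52. Counts at an unadjusted p under 0.05 ranged from 1 to 8 higher and 1 to 8 lower for other enzymes, 0 to 2 and 0 to 2 for carriers, 1 to 4 and 0 to 1 for regulators, and 2 to 4 and 0 to 1 for Atf4 targets.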

Other observations

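The regulators and other targets of glucagon and glucocorticoid, 25 genes that were all tested, had a median log2 fold change of 0.08, with 17 fitted higher and 8 lower. None passed the adjusted threshold in edgeR, DESeq2 or limma-voom. At an unadjusted p under 0.05 there were 2 higher and 0 lower, beside 4.04% and 3.39% of all genes tested. Ppara, a nuclear receptor of the fasting response, read 66.7 and 64.7 CPM in the control livers and 74.5 and 106 CPM in the livers labelled HuR hKO, where mouse 4 was the highest. Fgf21, a hormone secreted by the liver, read 0.978 and 1.79 CPM against 3.28 and 2.71 CPM, low levels in all 4 livers (log2 fold change 1.10, SE 0.397, edgeR adjusted p = 0.574).

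The list of targets of Atf4, the transcription factor of the amino acid response, held 18 genes, of which 14 had enough counts. It included Atf4 itself (log2 fold change 0.01, SE 0.148) and Cth, a member of the module (0.04). In the fit 13 were higher and 1 lower (92.9% higher, beside 50.3% of all genes tested), with a median log2 fold change of 0.38. None passed the adjusted threshold in edgeR or limma-voom, and 1 passed in DESeq2 (beside 0.654% of all genes tested). At an unadjusted p under 0.05, 3 were higher, beside 4.04% of all genes tested. Atf5 read 257 and 292 CPM in the controls and 472 and 403 CPM in the livers labelled HuR hKO, with both of the latter well above (0.67, SE 0.150, adjusted p = 0.281 in edgeR and 0.0119 in DESeq2). Trib3, a pseudokinase, read 4.67 and 5.90 CPM against 8.44 and 12.1 CPM. Ddit4, an inhibitor of mTORC1, read 9.18 and 8.21 CPM against 10.7 and 23.9 CPM, with mouse 4 far above the other livers. Unlike in the module, mouse 3 was above mouse 4 in summed level of this list (590 and 619 CPM in the controls, 812 and 788 CPM in mice 3 and 4). Atf5 was the largest part of each sum. Relative to the mean of the 4 mice the median gene of the list lay at -0.15, -0.25, 0.25 and 0.12 on the log2 scale in mice 1 to 4.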
